A study of Mus musculus with 12 samples.

Results

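The genes described here are Socs1, Socs2, Socs3, Cish, Pim1, Pim2, and Bcl3, 7 of the 25078 genes in the deposited count table, chosen by name as targets of STAT transcription factors. They were measured by RNA-Seq in 12 libraries of donor T cells sorted from the liver of irradiated WT BALB/c mice on day 6 after hematopoietic cell transplantation (HCT), when graft-versus-host disease develops. All recipients were given T cell-depleted bone marrow from WT C57BL/6 donors, and T cells from C57BL/6 donors. The T cell donors were WT, STAT3ko (the floxed Stat3 gene deleted in T cells by CD4-Cre), or STAT3ko PD-1ko (the same deletion in mice that also lack PD-1). CD4 and CD8 T cells were sorted separately, which gives 6 groups of 2 libraries, each library combined from the livers of 3 recipients. There was no group lacking PD-1 alone, so the loss of PD-1 was measured only in cells without STAT3. The libraries held 21676125 to 24551477 counts on genes, and all 7 genes passed the filter on low counts in both subsets, with 213 to 20620 counts in a library. In the mm10 build of the deposited table, Socs1 lies at chr16:10783809-10785536, Socs2 at chr10:95411490-95416857, Socs3 at chr11:117966087-117969366, and Bcl3 at chr7:19808462-19822755, all on the minus strand. Cish lies at chr9:107296659-107302784, Pim1 at chr17:29490785-29496110, and Pim2 at chrX:7878306-7883432, on the plus strand, and counts were summed over the exons of each gene.

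Cytokines bound to their receptors activate Janus kinases (JAKs), which phosphorylate STAT proteins, and the STATs enter the nucleus and switch on target genes. SOCS proteins and the related CIS protein (encoded by Cish) are made in this way and then inhibit the same receptors and kinases, a negative feedback that restrains cytokine signaling in T cells. The PIM kinases are serine/threonine kinases that are active as soon as they are made and support cell survival and growth, and BCL3 is an atypical IkB protein that works in the nucleus with the p50 and p52 subunits of NF-kB.

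STAT dimers bind a palindrome with the core TTCNNNGAA. RefSeq promoter windows (GRCm38.p6, 250 bases before to 50 bases after the transcript start) were at hand for 6 of the 7 genes, and the core was found in those of Cish and Socs3. It reads the same on both strands and was present in 8.3% of all 32851 windows. The sequences are shown because they carry these matches, in capitals, from 5′ to 3′ on the strand of the gene.
Cish, chr9:107296654-107296683, plus strand: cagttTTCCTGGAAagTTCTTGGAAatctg
Socs3, chr11:117969487-117969546, minus strand: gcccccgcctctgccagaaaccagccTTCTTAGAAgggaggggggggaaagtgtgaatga
The Cish window holds 2 cores, at bases 1 to 9 and 12 to 20 counted from the transcript start, and the former also fits the longer form TTCCNGGAA, which 1.15% of windows hold. The Socs3 core lies 154 to 146 bases before the start. In the Socs1 window, 2 overlapping matches to GAAA, any 2 bases, and GAAA again, the kind of repeat that interferon regulatory factors bind, lie 83 to 68 bases before the start. That pattern, searched on both strands, was present in 3.44% of windows.
Socs1, chr16:10785587-10785636, minus strand: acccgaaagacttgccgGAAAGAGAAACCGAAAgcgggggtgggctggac
No STAT core was found in the windows of Socs1, Pim1 (2 windows), Pim2, and Bcl3. A match is a description of the letters and not of a bound site.

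Stat3 and Pdcd1, the targeted genes, followed the labels. Levels are given as TMM-normalized CPM, the counts of a gene scaled to library size, unless said otherwise. In CD4 T cells Stat3 was 369 and 467 CPM in WT, 139.9 and 164 in STAT3ko, and 157 and 219 in STAT3ko PD-1ko libraries. In CD8 T cells its mean was 391 in WT, 142 in STAT3ko, and 194 in STAT3ko PD-1ko libraries. Reads on Stat3 therefore remained in all STAT3ko libraries, and reads outside the deleted part of a gene do not measure the protein. Pdcd1, which encodes PD-1, averaged 241, 292, and 40.6 CPM in the same order in CD4 and 342, 439, and 79.6 in CD8 T cells.

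T cell markers dominated every library. The 9 genes of the T cell list (Thy1 the most abundant) summed to 5457 to 6848 CPM in CD4 and 4838 to 6457 CPM in CD8 libraries. Cd4, Zbtb7b, and Cd40lg summed to 1395 to 2252 CPM in CD4 and 44.3 to 93.7 CPM in CD8 libraries, and Cd8a, Cd8b1, and Runx3 to 217 to 296 and 1404 to 2629 CPM, in both cases with the lowest sums of their own subset in the STAT3ko PD-1ko libraries (1571 and 1395 CPM for the CD4 and 1404 and 1436 for the CD8 genes), whose part in the differences between genotypes was not tested. Of other cell types, the 12 macrophage and monocyte genes (Cd68 the most abundant) summed to 7.58 to 20.8 CPM in CD4 and 18.1 to 40.5 CPM in CD8 libraries. The 10 neutrophil genes summed to at most 1.48 CPM, the 12 hepatocyte genes (Trf the most abundant) to at most 6.16, the 7 B cell genes (Cd79b the most abundant) to at most 14.7, the 7 dendritic cell genes to at most 7.31, the 8 endothelial and stellate cell genes in the table to at most 3.68, and the 7 erythroid genes, 5 of them at 0 in all libraries, to at most 0.563. The 6 NK cell genes (Klrb1c, also found on some T cells, or Fcer1g the most abundant) summed to 19.7 to 33.2 CPM in CD4 and 32.1 to 82.7 CPM in CD8 libraries. Several of these sums moved with genotype. The T cell sums were 6848 and 6464 CPM in WT, 6230 and 6056 in STAT3ko, and 5663 and 5457 in STAT3ko PD-1ko CD4 libraries, and 6457 and 6370, 5878 and 6120, and 4838 and 4896 CPM in CD8 libraries. The NK cell sums in CD8 libraries were 74.6 and 82.7 CPM in WT, 43.4 and 67.2 in STAT3ko, and 44.2 and 32.1 in STAT3ko PD-1ko, and the B cell sums 14.7 and 10.8, 12.7 and 13.8, and 6.32 and 5.43 CPM. The NK cell sums in CD4 libraries went the other way, with 21.5 and 19.7, 27.9 and 23.8, and 33.1 and 26.1 CPM in the same order, as did the dendritic cell sums, with 2 and 3.39, 3.11 and 4.27, and 5.54 and 7.31 CPM. The part of these markers in the differences between genotypes was not tested. In bulk samples, fewer cells of a type and less RNA per cell cannot be told apart.

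Per transcript length, in the RPKM deposited by the authors, Pim1 was the most abundant of the 7 genes and Socs2 or Bcl3 among the least. In WT CD4 T cells Pim1 had 346 and 149 RPKM, Cish 64.2 and 52.2, Pim2 40.7 and 48.9, and Socs3 49.9 and 38.7. Bcl3 had 16.9 and 37.0, Socs1 18.1 and 17.9, and Socs2 13.3 and 12.1 RPKM. Both Cish libraries exceeded those of Pim2 and Socs3, which overlapped, so that the order of the latter is not resolved, and those of Bcl3 lay on both sides of Socs1, whereas both libraries of Pim1 exceeded those of the other 6 genes. In CD8 T cells of STAT3ko donors Socs2 was the lowest, at 3.56 ± 0.244 RPKM (SD, n = 2), against 191 ± 130 for Pim1.

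**Figure D1:**
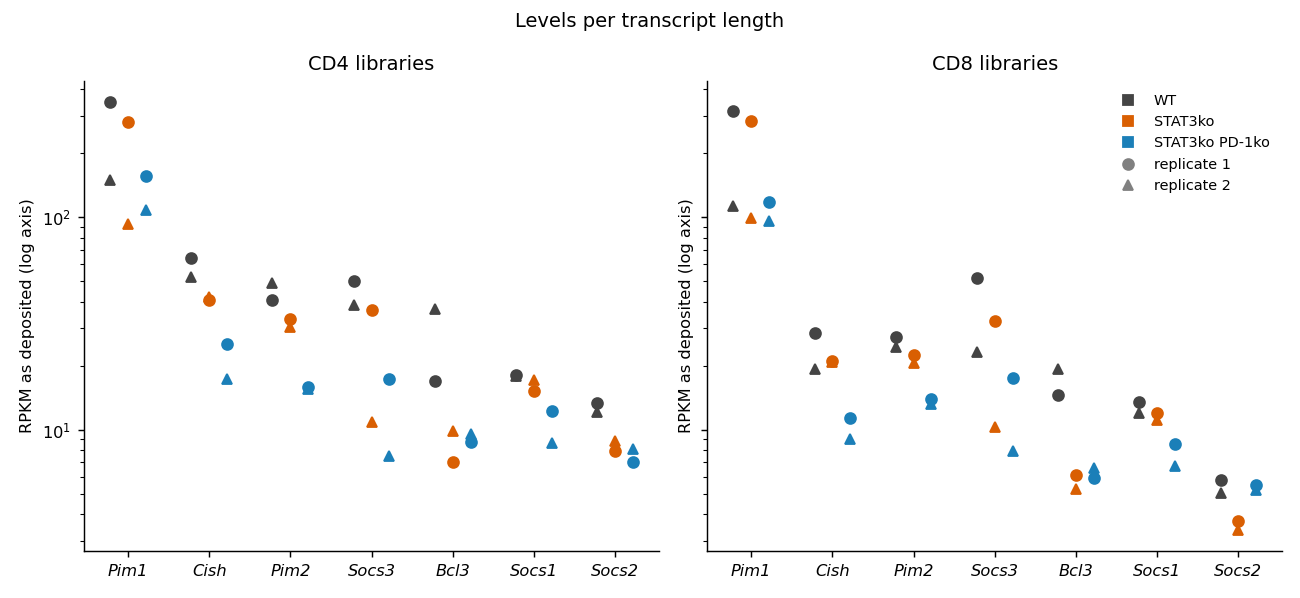
Levels of the 7 genes as RPKM deposited by the authors, on a log axis, in the 6 CD4 (left) and 6 CD8 libraries (right). Colours mark the donor genotype and symbols the replicate; Pim1 lies above the other genes in each library, at 92.4 to 346 RPKM.

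The genotypes were compared within each subset by edgeR's quasi-likelihood test, with p-values adjusted (Benjamini-Hochberg) over all genes tested, and a gene was called at an adjusted p under 0.05. The 3 comparisons of a subset share libraries, so their counts are not independent of each other. Between STAT3ko and WT, none of the 7 genes was called in CD4 (0.334% of the 11959 genes tested were called, 0.184% of them lower) or in CD8 T cells (0.0583% of 12002, 0.0417% lower), and at an unadjusted p under 0.05 there were 4 and 2 of them, against 1259 of 11959 and 1315 of 12002 genes. All 7 fold changes were negative in both subsets, with a median log2 fold change of -0.48 in CD4 and -0.28 in CD8 T cells, against 0.01 and -0.01 over all genes tested. Between STAT3ko PD-1ko and WT, 5 of 7 were lower in CD4 and 4 of 7 in CD8 T cells, where 5.65% and 8.21% of all genes tested were called lower and 12.9% and 17.2% in either direction. The medians were -1.46 and -1.02, against -0.01 and -0.000618 over all genes. Between STAT3ko PD-1ko and STAT3ko, Cish and Pim2 were lower in both subsets (2 of 7 in each), where 5.03% and 8.05% of all genes were called lower and 11.1% and 16.8% in either direction. No member was called higher in any of these 6 comparisons as designed, although Socs2 in STAT3ko PD-1ko CD8 T cells was called higher than in STAT3ko under 3 other settings. With library totals as the only scaling, the share of lower calls among all calls of STAT3ko PD-1ko fell. Against STAT3ko it went from 45.4% to 34.1% (CD4) and from 47.9% to 33.0% (CD8). Against WT it went from 43.95% to 35.94% (CD4) and from 47.7% to 35.2% (CD8).

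Counting only genes whose libraries did not overlap between 2 groups gave more. In STAT3ko against WT, 6 of 7 were lower in CD4 (19.4% of all genes tested) and 4 of 7 in CD8 T cells (21.1%). In STAT3ko PD-1ko against WT, these were 6 (29.5%) and 5 of 7 (29.8%), and against STAT3ko 4 (30.8%) and 3 of 7 (31.5%), with Socs2 the only member wholly higher, in CD8 T cells (31.6% of all genes).

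**Figure D2:**
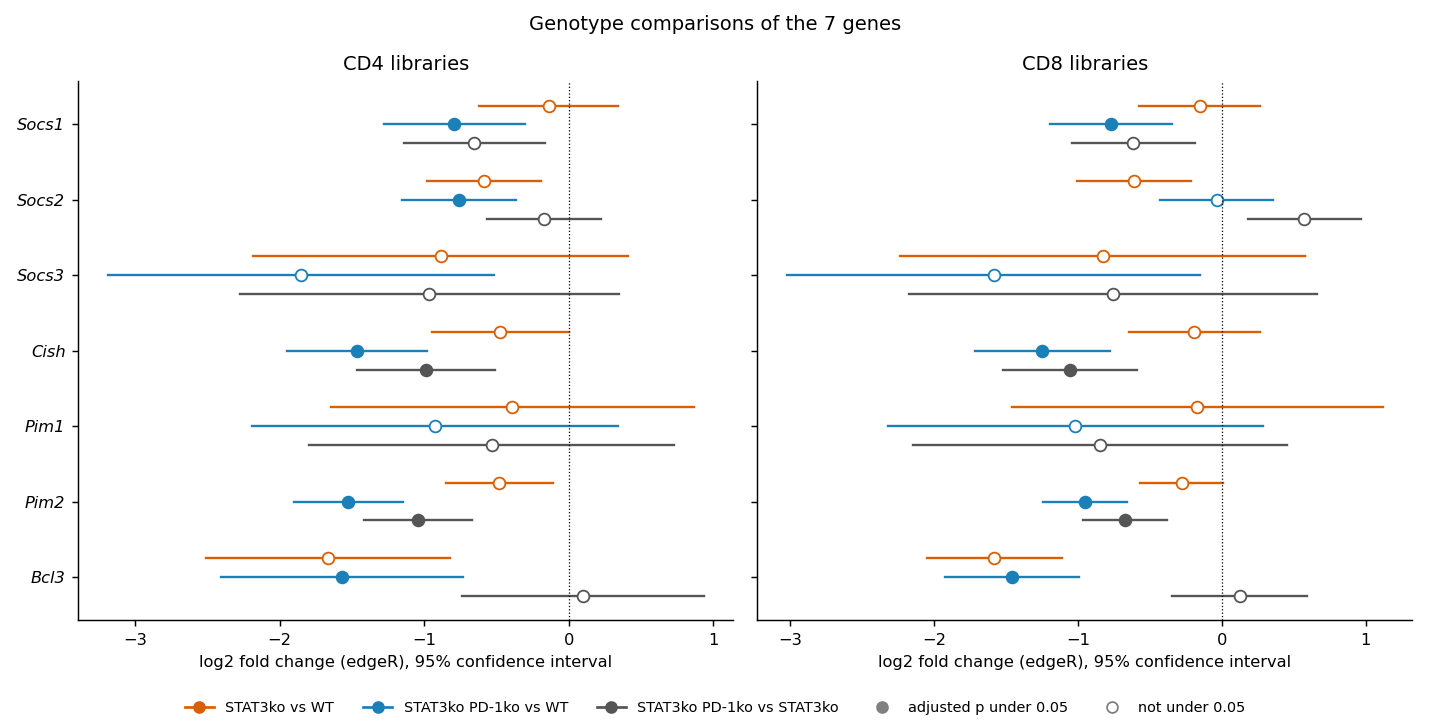
Log2 fold changes of the 7 genes with 95% confidence intervals from edgeR, for 3 genotype comparisons in CD4 (left) and CD8 (right) libraries. Filled points have an adjusted p under 0.05; they are the 5 and 4 genes of the STAT3ko PD-1ko against WT comparison and Cish and Pim2 against STAT3ko.

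The calls rested on few libraries. Without the second STAT3ko PD-1ko library, none of the 7 genes was called against WT or against STAT3ko in the subset concerned, with 63 and 0 genes of the whole table called in CD4 and 112 and 2 in CD8 T cells. Without the first one in CD4 T cells, Cish and Pim2 were called against WT and no member against STAT3ko, among 153 and 65 genes. Without the first or the second WT library, 3 and 2 members were called against WT in CD4 T cells, among 696 and 550 genes in all (1538 with all libraries). In CD8 T cells 3 were called without either of them or without the first STAT3ko PD-1ko library, among 1093, 689, and 863 genes (2066 with all libraries). Without the first or the second STAT3ko library in CD8 T cells, 1 (Cish) and 0 members were called against STAT3ko, among 1199 and 454 genes (2017 with all libraries). Without the second STAT3ko library in CD4 T cells, Pim2 and Socs3 (-1.59, adjusted p = 0.0434) were called against STAT3ko and Cish was not (adjusted p = 0.0576), among 538 genes (1324 with all libraries). Such a fit leaves 1 library in a group, which is then assumed to vary like the others. In CD4 T cells the replicate numbers were taken to pair the libraries, which the labels do not state. This was inferred from these same data, where deviations from the group mean correlated between genotypes (r = 0.63, 0.303, and 0.199). Under that assumption, a fit with the replicate number as a block called all 7 genes lower against WT in STAT3ko PD-1ko (12.2% of all genes called lower). It also called Bcl3 lower in STAT3ko against WT (1.45%), and Socs1, Cish, and Pim2 lower in STAT3ko PD-1ko than in STAT3ko (12.8%).

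Cish encodes CIS, an inhibitor of signaling through the IL-2 receptor and STAT5. It was lower in STAT3ko PD-1ko T cells than in either other genotype. Its level in CD4 T cells was 193 and 156 CPM in WT, 123 and 126 in STAT3ko, and 73.8 and 50.6 in STAT3ko PD-1ko libraries. The 3 groups did not overlap. STAT3ko PD-1ko T cells differed by a log2 fold change of -1.46 ± 0.207 from WT (SE, adjusted p = 0.00766) and of -0.99 ± 0.205 from STAT3ko (adjusted p = 0.0281), which is 35.7% and 49.9% of the mean level, whereas STAT3ko differed from WT by -0.48 (adjusted p = 0.473). The CD8 libraries gave 84.1 and 57.5 CPM in WT, 62.2 and 61.9 in STAT3ko, and 32.9 and 26.3 in STAT3ko PD-1ko libraries. The STAT3ko libraries lay between those of WT, and both STAT3ko PD-1ko libraries lay below all others. The log2 fold change of STAT3ko PD-1ko was -1.25 ± 0.199 against WT (adjusted p = 0.00999) and -1.06 ± 0.198 against STAT3ko (adjusted p = 0.0172), and that of STAT3ko against WT was -0.19 (95% confidence interval -0.65 to 0.27).

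Socs1 encodes SOCS1, which binds JAK kinases and restrains interferon-γ and common γ chain cytokine signaling. Its level was lower in STAT3ko PD-1ko than in WT T cells of both subsets. In CD4 T cells the libraries gave 24.1 and 23.6 CPM in WT, 20.4 and 22.8 in STAT3ko, and 15.9 and 11.3 in STAT3ko PD-1ko. The CD8 libraries gave 17.9 and 15.9, 15.7 and 14.7, and 11.01 and 8.69 CPM. No pair of genotypes overlapped in either subset, but the gap between WT and STAT3ko was small. The log2 fold change of STAT3ko PD-1ko against WT was -0.79 ± 0.209 in CD4 (adjusted p = 0.0478) and -0.77 ± 0.181 in CD8 T cells (adjusted p = 0.0295), and that of STAT3ko against WT was -0.14 (adjusted p = 0.885) and -0.15 (adjusted p = 0.813). Against STAT3ko it was -0.65 (adjusted p = 0.0869, 0.0383 with the replicate block, and 0.0414 by DESeq2) in CD4 and -0.61 (adjusted p = 0.0583, and 0.027 by DESeq2) in CD8 T cells. The CD4 call against WT was at the threshold, with an adjusted p of 0.0527 under a filter of 10 or more counts in each library and 0.0593 with library totals as the only scaling.

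Socs2 encodes SOCS2, a regulator of growth hormone and cytokine receptors. Its CD4 level was 35.9 and 32.3 CPM in WT, 21.6 and 23.6 in STAT3ko, and 18.5 and 21.1 in STAT3ko PD-1ko libraries. All 4 libraries without STAT3 lay below both WT libraries. The log2 fold change against WT was -0.59 ± 0.170 in STAT3ko (adjusted p = 0.254) and -0.76 ± 0.170 in STAT3ko PD-1ko T cells (adjusted p = 0.0285), and the latter was a call. Its CD8 level was 15.3 and 13.5 CPM in WT, 9.88 and 8.997 in STAT3ko, and 14.3 and 13.5 in STAT3ko PD-1ko libraries. Here the STAT3ko libraries were the lowest and those of WT and STAT3ko PD-1ko overlapped. The log2 fold change was -0.61 ± 0.168 for STAT3ko against WT (adjusted p = 0.296) and 0.57 ± 0.168 for STAT3ko PD-1ko against STAT3ko (adjusted p = 0.0574). The latter had an adjusted p of 0.036 by DESeq2, 0.0366 with library totals as the only scaling, and 0.0392 with the replicate block. These settings called 2813, 2174, and 2932 genes in all, and in CD8 T cells the replicate numbers were not shown to pair the libraries. For STAT3ko PD-1ko against WT it was -0.04 (95% confidence interval -0.43 to 0.35), which turned to 0.04 with library totals as the only scaling. The effect of STAT3ko PD-1ko against WT differed between CD8 and CD4 T cells by 0.74 ± 0.209 on the log2 scale (unadjusted p = 0.00526), which did not pass the adjustment over 12334 genes (adjusted p = 0.444).

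Socs3 encodes SOCS3, the feedback inhibitor of gp130 cytokine receptors that signal through STAT3. Its CD4 libraries gave 136 and 104 CPM in WT, 100.5 and 29.3 in STAT3ko, and 45.7 and 19.9 in STAT3ko PD-1ko libraries. The CD8 levels were 139 and 62.3, 86.3 and 27.5, and 45.8 and 21.02 CPM. The first library of each group exceeded the second, so that the spread within groups was as large as many differences between them. Within a replicate number, the log2 difference of STAT3ko PD-1ko from WT was -1.57 and -2.39 in CD4 and -1.60 and -1.56 in CD8 T cells, and that of STAT3ko from WT was -0.43 and -1.83 in CD4 and -0.69 and -1.18 in CD8 T cells. Socs3 was lower than in WT in each of these 8 differences. They share WT libraries, and the subsets share recipients, so they are not independent of each other. In CD8 T cells the numbers were not shown to pair the libraries, and the STAT3ko and WT libraries overlapped. Socs3 was not called in any comparison as designed. For STAT3ko PD-1ko against WT the log2 fold change was -1.85 ± 0.572 in CD4 (adjusted p = 0.0756, and 0.00269 with the replicate block) and -1.59 ± 0.611 in CD8 T cells (adjusted p = 0.116). Both were called with no filter on low counts (adjusted p = 0.0146 and 0.0288), with only the 4 libraries compared (0.00596 and 0.029), and without either STAT3ko library (0.00498 and 0.00499 in CD4, 0.0308 and 0.0304 in CD8 T cells), but not by DESeq2 (0.0936 and 0.184). Leaving out each library gave -2.56 to -1.38 in CD4, both ends without a STAT3ko PD-1ko library, and -2.26 (without the first STAT3ko PD-1ko library) to -0.90 (without the first WT library) in CD8 T cells.

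Pim2 encodes a PIM kinase that cytokines raise in lymphocytes. It was lower in STAT3ko PD-1ko T cells than in both other genotypes. Among CD4 T cells it was 82.7 and 98.5 CPM in WT, 68.5 and 61.2 in STAT3ko, and 31.4 and 30.7 in STAT3ko PD-1ko libraries. Among CD8 T cells the levels were 55.02 and 49.5, 45.1 and 41.1, and 27.6 and 26.0 CPM. The 3 genotypes did not overlap in either subset and stood in the order WT, STAT3ko, STAT3ko PD-1ko. Against WT the log2 fold change of STAT3ko PD-1ko was -1.53 ± 0.161 in CD4 (adjusted p = 0.00395) and -0.95 ± 0.125 in CD8 T cells (adjusted p = 0.00604), which is 34.2% and 51.3% of the WT mean. Against STAT3ko it was -1.04 ± 0.160 (adjusted p = 0.0127) and -0.67 ± 0.125 (adjusted p = 0.0162). The values of STAT3ko against WT, -0.48 in CD4 (adjusted p = 0.314) and -0.28 in CD8 T cells (adjusted p = 0.47), were not calls. The effect against WT was 0.58 ± 0.185 less negative in CD8 than in CD4 T cells on the log2 scale (unadjusted p = 0.0101), which did not pass the adjustment (adjusted p = 0.595). The Pim2 gene overlaps Btbd35f15 on the opposite strand, which had 0 counts in all 12 libraries.

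Pim1, the other PIM kinase among the 7 genes, is a classical target of STAT3 and STAT5. The CD4 libraries gave 938 and 399.9 CPM in WT, 769.6 and 249 in STAT3ko, and 409 and 283 in STAT3ko PD-1ko libraries. Its level in CD8 T cells was 843 and 304 CPM in WT, 755 and 266 in STAT3ko, and 309 and 253 in STAT3ko PD-1ko libraries. As for Socs3, the first library of each group was the higher one, and all groups overlapped. Against WT the log2 fold change of STAT3ko PD-1ko was -0.93 ± 0.543 in CD4 (adjusted p = 0.311, and 0.0347 with the replicate block) and -1.02 ± 0.555 in CD8 T cells (adjusted p = 0.244). The values within replicate numbers were -1.20 and -0.50 in CD4 and -1.45 and -0.27 in CD8 T cells. Leaving out the first WT library gave -0.20 (CD4) and -0.12 (CD8), and leaving out the second -1.41 and -1.58. For STAT3ko against WT the sign turned when the first WT library was left out, from -0.39 to 0.34 in CD4 and from -0.17 to 0.73 in CD8 T cells, and when the second STAT3ko library was left out, to 0.20 and 0.39.

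**Figure D3:**
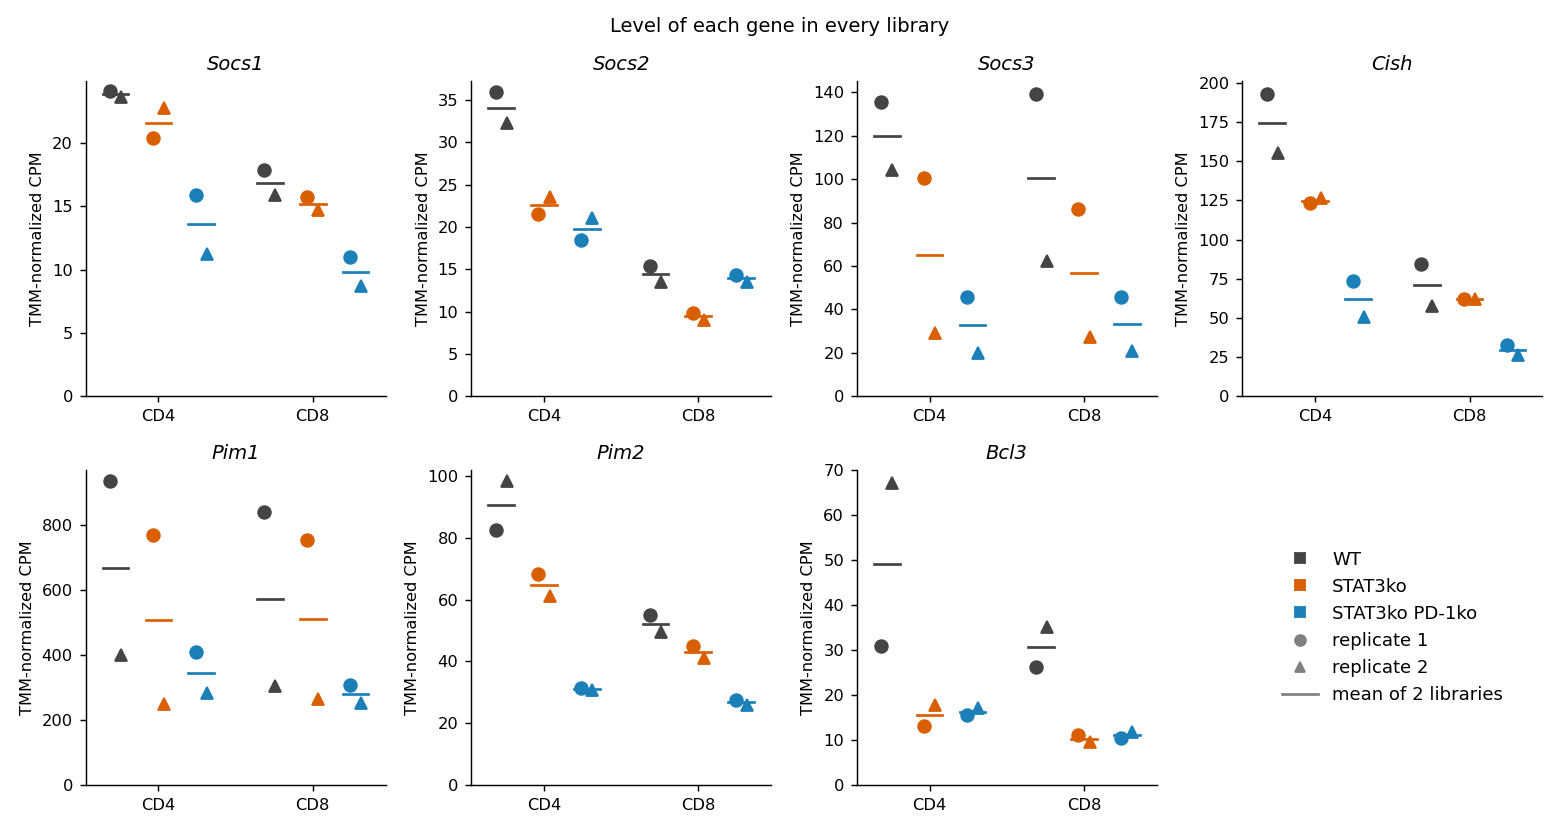
TMM-normalized CPM of each gene in all 12 libraries, with 1 panel for each gene and axes from 0. Points are libraries (circles replicate 1, triangles replicate 2), lines the mean of 2 libraries and colours the genotype; Cish and Pim2 are lowest in STAT3ko PD-1ko, Bcl3 is low in both genotypes without STAT3, and Socs3 and Pim1 are higher in replicate 1 of each group.

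Bcl3 was low in both genotypes without STAT3, and these did not separate from each other. In CD4 T cells it was 30.9 and 67.2 CPM in WT, 13.04 and 17.8 in STAT3ko, and 15.6 and 17.0 in STAT3ko PD-1ko libraries. The CD8 libraries gave 26.2 and 35.1, 11.1 and 9.49, and 10.5 and 11.7 CPM. Both WT libraries lay above all 4 others in each subset, whereas the STAT3ko and STAT3ko PD-1ko libraries overlapped. The log2 fold change of STAT3ko PD-1ko against WT was -1.57 ± 0.360 in CD4 (adjusted p = 0.0309) and -1.46 ± 0.199 in CD8 T cells (adjusted p = 0.00696), or 33.3% and 36.1% of the WT mean. The CD4 value was -0.89 without the second WT library (adjusted p = 0.108), and leaving out each library gave -2.03 to -0.89, and -2.12 to -1.01 for STAT3ko against WT. That of STAT3ko against WT was as large, -1.66 ± 0.362 in CD4 and -1.58 ± 0.200 in CD8 T cells, but its adjusted p was 0.153 and 0.097. It was called in CD4 T cells with the replicate block (adjusted p = 0.017) and by DESeq2 in both subsets (adjusted p = 5.83e-04 in CD4 and 1.17e-08 in CD8 T cells, with 1.39% and 1.00% of all genes called lower). Between STAT3ko PD-1ko and STAT3ko the difference was 0.10 in CD4 (95% confidence interval -0.74 to 0.93) and 0.12 in CD8 T cells (-0.35 to 0.59). Like Bcl3 in the CD4 libraries, the summed macrophage and monocyte genes were highest in the second WT CD4 library (9.64 and 20.8 CPM in WT, 7.58 and 15.9 in STAT3ko, and 9.91 and 12.1 in STAT3ko PD-1ko libraries), and their part in the result was not tested. Cd68 was 8.27 and 8.68 CPM in the WT CD4 libraries, whereas C1qa was 0.318 and 1.78 and Clec4f 0.0909 and 1.65. In CD8 T cells these sums were 30.4 and 40.5 in WT, 27.9 and 36.2 in STAT3ko, and 18.1 and 19.8 in STAT3ko PD-1ko libraries.

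The difference between replicates was tested in a fit of all 12 libraries with group and replicate number as terms, where 14.1% of 12334 genes differed between the numbers (7.02% lower in replicate 2). Socs3 (log2 difference of replicate 2 from replicate 1 -1.21 ± 0.153, adjusted p = 0.00108) and Pim1 (-1.11 ± 0.168, adjusted p = 0.0025) were lower in replicate 2 in 6 of 6 groups. Pim3, the third PIM kinase, which was not among the 7 genes, behaved in the same way (-1.15 ± 0.160, adjusted p = 0.00175, 6 of 6 groups). The other 5 members did not pass the test, with -0.28 for Cish (adjusted p = 0.0595), 0.36 for Bcl3 (adjusted p = 0.121), and -0.16 to -0.04 for Socs1, Pim2, and Socs2. CD4 and CD8 libraries of a genotype came from the same recipients, so the 6 groups are not independent, and this fit did not take that into account. The share of all genes lower in replicate 2 in all 6 groups was not counted. The labels do not say what the replicate numbers stand for.

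**Figure D4:**
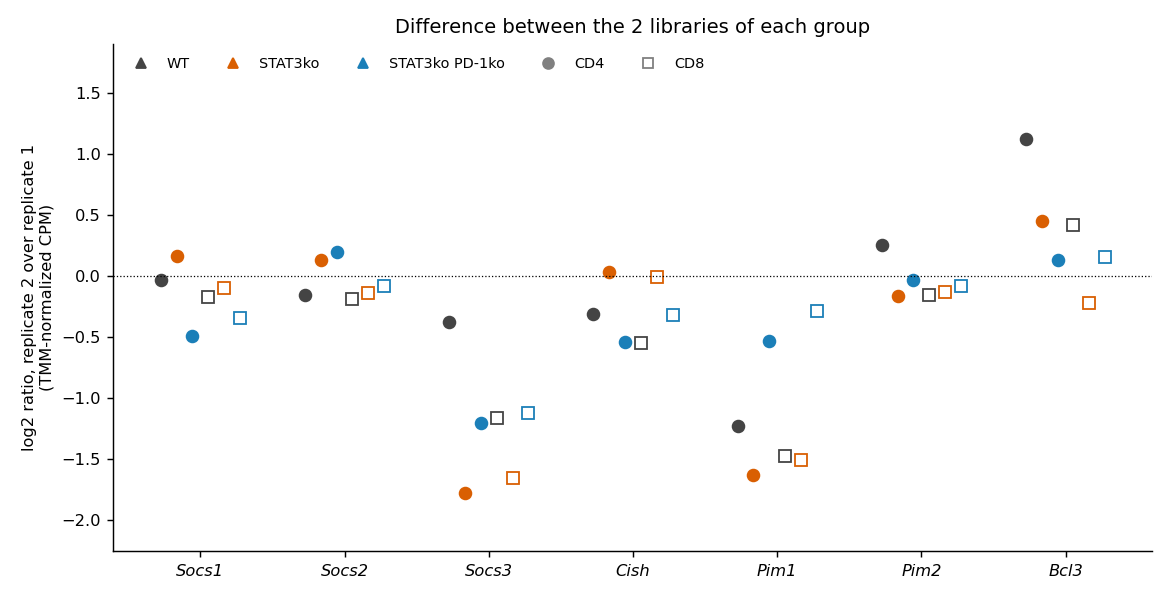
Log2 ratio of the second over the first library of each group, from TMM-normalized CPM, for the 7 genes. Filled circles are CD4 and open squares CD8 groups, coloured by genotype; all 6 values lie below 0 for Socs3 (-1.77 to -0.38) and Pim1 (-1.63 to -0.29), whereas those of Socs2 lie between -0.19 and 0.19.

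CD4 and CD8 T cells came from the same livers and were compared in the fit of 12 libraries. Cish, Socs2, and Pim2 were lower in CD8 than in CD4 T cells of WT donors, with log2 differences of -1.30 ± 0.222, -1.24 ± 0.149, and -0.79 ± 0.131 (adjusted p = 0.00458, 0.000601, and 0.00376), where 10.5% of genes were called and 5.59% were lower. The same 3 genes were called in STAT3ko donors, with -1.01 for Cish, -1.26 for Socs2, and -0.59 for Pim2, where 9.62% of genes were called and 4.82% were lower. In STAT3ko PD-1ko donors Cish alone was called, with -1.07 ± 0.224 (adjusted p = 0.0254), where 4.14% of genes were called and 2.50% were lower, and Socs2 and Pim2 had -0.51 (adjusted p = 0.0982) and -0.21 (adjusted p = 0.544). With the pool of recipients as a block, 5 members were lower in WT (24.3% of genes called in either direction), 4 in STAT3ko (24.9%), and 3 in STAT3ko PD-1ko donors (14.4%). The additional calls were Socs1 in each genotype (-0.50 in WT, -0.51 in STAT3ko, and -0.45 in STAT3ko PD-1ko, adjusted p = 0.0126, 0.0132, and 0.0397), Bcl3 in WT (-0.60, adjusted p = 0.0461, with -0.24 and -0.94 within replicate numbers), and Socs2 in STAT3ko PD-1ko donors (adjusted p = 0.0238). Without the pool as a block, the Bcl3 difference in WT went from -0.68 to -0.02 without the second CD4 WT library and to -1.12 without the first. Leaving out 1 library of the genotype compared could remove calls of members, and the calls over the whole table fell as well. Over all 12 libraries left out in turn, the log2 difference in STAT3ko donors was -1.03 to -0.99 for Cish, -1.325 to -1.19 for Socs2, and -0.66 to -0.51 for Pim2. In STAT3ko PD-1ko donors that of Cish was -1.32 to -0.77. Socs3 and Pim1 differed by -0.30 to 0.03 on the log2 scale in the 3 genotypes, with standard errors of 0.656 to 0.7. No effect of genotype on the 7 genes passed the test of a difference between the subsets. There, 0 and 1 of 12334 genes (0.00811%) passed in all for STAT3ko and for STAT3ko PD-1ko against WT. With the pool as a block, 0 and 84 genes passed, with 0 members among them. A difference between the subsets was not tested for STAT3ko PD-1ko against STAT3ko.

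Of the closest relatives, Socs4, Socs6, Socs7, and Pim3 were not called in any of the 6 comparisons. Socs5, another SOCS protein, had a mean of 7.12 CPM in WT, 14.0 in STAT3ko, and 4.85 in STAT3ko PD-1ko CD4 T cells, and of 3.58, 6.56, and 2.71 CPM in CD8 T cells. It was called lower in STAT3ko PD-1ko than in STAT3ko in both subsets (log2 fold change -1.52 ± 0.294, adjusted p = 0.0235, and -1.26 ± 0.290, adjusted p = 0.029). Against WT, Socs5 in STAT3ko had 0.98 (adjusted p = 0.261) and 0.87 (adjusted p = 0.348).

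The remaining genes of the pathway were read from lists, whose counts stand beside those over all genes. Of the genes tested, 676 of 11959 were lower and 862 higher in CD4 and 985 of 12002 lower and 1081 higher in CD8 T cells for STAT3ko PD-1ko against WT (5.65% and 8.21% lower, 12.9% and 17.2% in either direction). Against STAT3ko, 601 were lower and 723 higher in CD4 and 966 lower and 1051 higher in CD8 T cells (5.03% and 8.05% lower, 11.1% and 16.8% in either direction). The medians of all genes were -0.0126 to -0.000618 in these 4 comparisons. A count near these shares is not a result about a list. Between STAT3ko and WT, Il15 was called higher and 1 of 23 other STAT-responsive genes lower in CD4 T cells, and no list gene was called in CD8 T cells. Il15, a cytokine of the common γ chain family, was 0.136 and 0.212 CPM in WT and 1.84 and 1.87 in STAT3ko CD4 libraries. These levels are low and rest on few counts. Of the 10 JAK kinases and other STATs, 2 were lower in STAT3ko PD-1ko than in WT in each subset, namely Jak1 (-0.57 in CD4, -0.71 in CD8) and Jak3 (-0.84 and -0.84), which encode the kinases on common γ chain receptors (5.65% and 8.21% of all genes were lower, and the medians of the list were -0.18 and -0.19). Against STAT3ko, 1 was lower in CD4 and 2 in CD8 T cells, with Jak1 lower in both (-0.58 and -0.81). Stat5a and Stat5b were not called in any comparison. The log2 fold change of Stat5a in STAT3ko PD-1ko against STAT3ko was 0.70 in CD4 (adjusted p = 0.0608) and 0.51 in CD8 T cells (adjusted p = 0.0659), and that of Stat5b was -0.10 and -0.07.

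The cytokine receptor chains had median log2 fold changes of -0.51 in CD4 and -0.33 in CD8 T cells of STAT3ko PD-1ko against WT donors. Of 20 tested in CD4 T cells, 7 were lower and 1 was higher in STAT3ko PD-1ko than in WT (5.65% of all genes lower), and 3 were lower and 2 higher than in STAT3ko (5.03%). Of 18 tested in CD8 T cells, 5 were lower and 2 higher than in WT (8.21%), and 4 were lower and 2 higher than in STAT3ko (8.05%). Il27ra, a chain of the IL-27 receptor, had a log2 fold change of -1.19 ± 0.182 in CD4 and -0.91 ± 0.135 in CD8 T cells against WT, and Il9r of -2.18 in CD4 T cells. Ifnar2, of the type I interferon receptor, had -1.03 in CD8 T cells against STAT3ko. Csf2rb, the β chain shared by the receptors of GM-CSF, IL-3, and IL-5, was 5.12 to 6.00 CPM in the 4 STAT3ko PD-1ko libraries and at most 0.762 CPM in the 4 WT libraries, a call in both subsets. Il2ra, the α chain of the IL-2 receptor, was higher in STAT3ko PD-1ko than in STAT3ko, by 0.83 ± 0.168 in CD4 (adjusted p = 0.0263) and 0.71 ± 0.126 in CD8 T cells (adjusted p = 0.0143), and had 0.18 and 0.42 against WT (adjusted p = 0.527 and 0.0614). Of 10 cytokine ligands tested in CD4 T cells, Il15 was higher and Lif (-2.64, adjusted p = 0.0375) and Il2 (-1.73, adjusted p = 0.0452) were lower in STAT3ko PD-1ko than in WT, and none was called against STAT3ko. Of 7 tested in CD8 T cells, none was called against WT and 2 were higher than in STAT3ko, among them Csf2, which encodes GM-CSF (2.02 ± 0.526, adjusted p = 0.0411).

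SOCS proteins act with a ubiquitin ligase and beside other inhibitors of JAK-STAT signaling. Of the 6 SOCS box ligase partners, only Cul2 was called, higher in STAT3ko PD-1ko CD8 T cells (0.44 against WT and 0.43 against STAT3ko). Of 12 other inhibitors of JAK-STAT signaling, Sh2b3, an adaptor that restrains JAK2, was lower against WT in CD4 T cells (-1.34, adjusted p = 0.0387), and none was called there against STAT3ko. In CD8 T cells, 2 were lower and 1, Cblb, was higher against WT (0.40, adjusted p = 0.0492), and 2 were lower against STAT3ko, namely Ptprc (-0.50), which encodes the phosphatase CD45, and Usp18 (-1.68), an inhibitor of the type I interferon receptor. Of 11 NF-kB proteins and inhibitors, Nfkbie alone was called. It was lower in STAT3ko PD-1ko than in WT in both subsets (-1.02 and -0.84) and than in STAT3ko in CD4 T cells (-0.86). Nfkb1 and Nfkb2, which encode p50 and p52, were not called, with -0.37 and -0.46 in CD4 and 0.18 and -0.15 in CD8 T cells against WT.

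Among 11 substrates of PIM kinases, 2 were higher and 2 lower in STAT3ko PD-1ko than in WT in each subset (12.9% and 17.2% of all genes in either direction), and 3 (CD4) and 2 (CD8) were higher and 1 lower in each subset than in STAT3ko (11.1% and 16.8%). Against WT the list had medians of 0.03 (CD4) and 0.00488 (CD8). Cdc25a and Cdc25c, phosphatases that drive the cell cycle, were higher against WT in both subsets (0.87 and 0.97 in CD4, 0.87 and 0.51 in CD8), and Map3k5, the stress kinase ASK1, was lower (-1.01 and -0.63). Eif4ebp1, a repressor of translation initiation, was higher than in STAT3ko (1.11 in both subsets). Of 23 other STAT-responsive genes, 6 were lower and 1 was higher in CD4 and 6 were lower in CD8 T cells of STAT3ko PD-1ko donors than of WT donors, where 5.65% and 8.21% of all genes were lower, with medians of the list of -0.47 and -0.54. Among them were Maf (-1.80 in CD4, -2.30 in CD8), Bcl6 (-2.20 and -2.16), and Id2 (-1.24 and -1.38), all of which encode transcription regulators of T cell differentiation. Against STAT3ko, 5 were lower and 2 higher in CD4 and 3 lower and 1 higher in CD8 T cells.

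**Figure D5:**
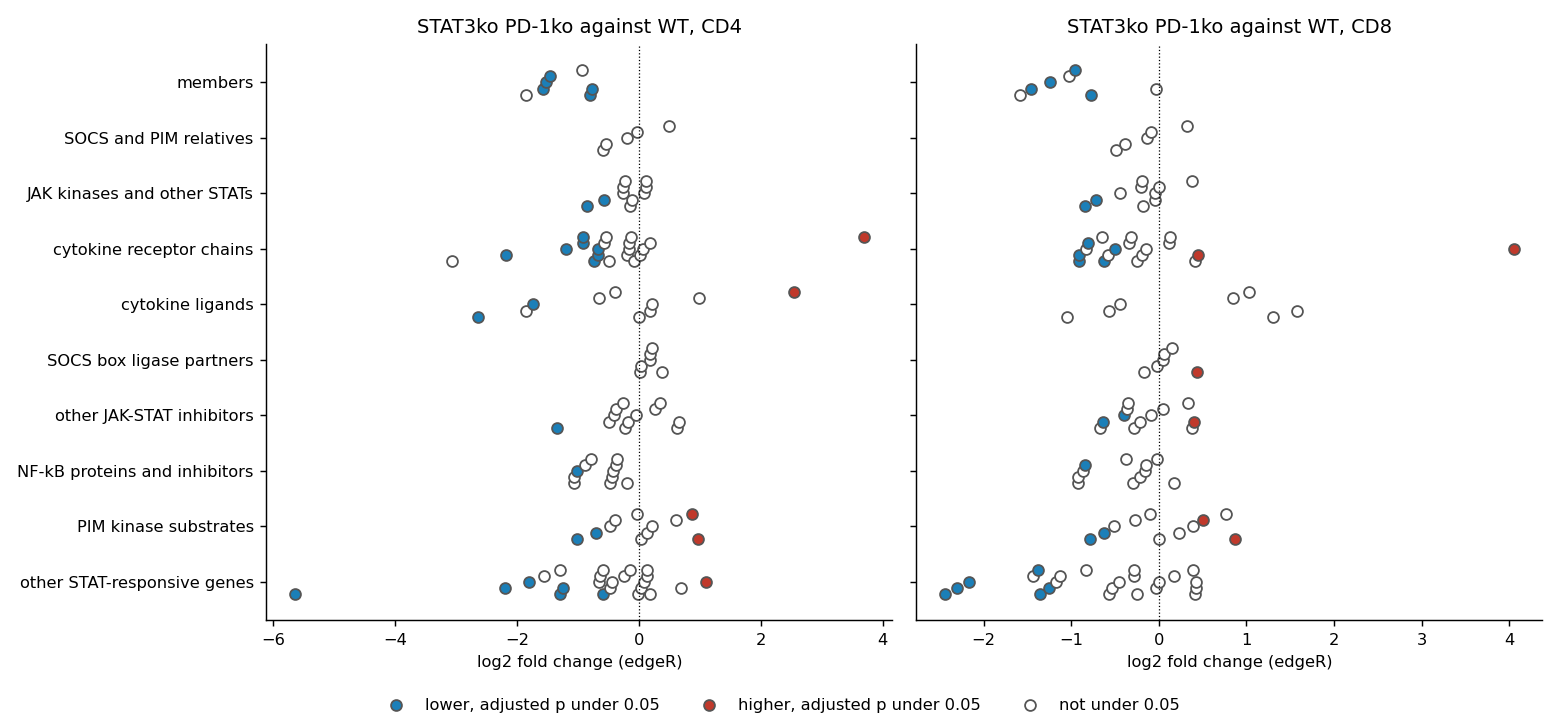
Log2 fold change of every tested gene of the 7 genes (members) and of 9 pathway lists, STAT3ko PD-1ko against WT, in CD4 (left) and CD8 (right) T cells; the 2 panels have different x axes. Filled points have an adjusted p under 0.05 (blue lower, red higher); vertical shifts within a list only separate points, and no member or close relative is called higher.

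The genes whose pattern was most like that of a called member were found by the root mean square difference of log2 CPM, centred on each gene's mean, over the 12 libraries, as a description. For Socs1 the closest were Traf1 (0.088), Tspan14 (0.101), and Cyth1 (0.117), against a SD of Socs1 itself of 0.446. For Socs2 they were H1f0, Il1rl2, and Ext1 (0.160 to 0.179, SD 0.590), for Cish Rhoc, Slc9a9, and Tmem176b (0.224 to 0.231, SD 0.834), and for Pim2 Ldlrad4, Tspan5, and Capn2 (0.169 to 0.174, SD 0.603). For Bcl3 they were 5830411N06Rik (0.329), Gm15743 (0.357), and Stat3 itself (0.377), against a SD of 0.815. The libraries share recipients between subsets, so that these points are not independent.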

How the data were processed

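RNA-Seq libraries of the 12 samples were grouped by the genotype and T cell subset in their titles. Per the labels and the study's methods, the authors used STAR (version 2.7) on mm10 and HTSeq-count (version 0.11) with RefSeq gene models, and deposited raw counts beside RPKM, which divides them by exon length and library size. The labels' growth protocol and library kit conflict with the study's methods and were not used. Whether reads were counted by strand is not given in the sources used here.

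The tests used edgeR (version 4.0.16, under R version 4.3.3) with filterByExpr (minimum count 10, minimum total count 15), TMM, and the quasi-likelihood test with Benjamini-Hochberg adjustment over all genes tested. Each subset had its own fit of 6 libraries (3 residual degrees of freedom), with a fit of all 12 for CD8 against CD4 and for the interaction. With 2 libraries against 2, an exact permutation test cannot go below p = 0.333, so none is given. Replicates are pools of mice, and p-values measure the spread between pools. The alternatives were DESeq2 (version 1.42.0), RLE factors or library totals, other filters, only 4 libraries, limma (version 3.58.1) on log2(RPKM + 1), a log2 fold change of at least 1, a replicate block, and leaving out each library. The differences within replicate numbers and the test of the replicate term were added after seeing the data.

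The deviations of replicate 1 from its group mean correlated across 12334 genes between CD4 genotypes (r = 0.63, 0.303, and 0.199), so the numbers were taken to pair the CD4 libraries. In CD8 T cells 1 of these correlations was under 0.1 (0.651, 0.16, and 0.0601). CD4 and CD8 libraries of a genotype came from the same recipients, per the study's methods. A pairing of the pools would therefore hold in both subsets or in neither, and whether the numbers pair them is not settled.

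The genes and lists were chosen with earlier results of these data known. Genes named beside the 7 were Stat3, Pdcd1, Socs4 to Socs7, Pim3, Stat5a, Stat5b, and Il2ra, up to 4 genes a list with the largest fold change among calls without overlap, and the 3 nearest patterns. Some genes that this rule selects are not reported here. Nfkb1 and Nfkb2 were named after their values were seen. Figures were drawn with matplotlib.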

Additional observations from a re-analysis of the deposited data

How the results depend on the processing

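The 7 genes had at least 213 counts in each library. The number of the 7 genes called in STAT3ko against WT went from 0 to 1 (Bcl3) in CD4 with DESeq2, with no filter, and with the replicate block, among 271, 165, and 303 genes. In CD8 T cells it went from 0 to 1 (Bcl3) with DESeq2 and with no filter, among 218 and 66 genes. In STAT3ko PD-1ko against STAT3ko in CD8 T cells it went from 2 to 4 with DESeq2 (Socs1 lower and Socs2 higher added, among 2813 genes), to 3 with library totals alone (Socs2 higher added, among 2174), and to 5 with the replicate block (Socs1 and Socs3 lower and Socs2 higher added, among 2932), against 2017 genes as designed. The block in CD8 T cells rests on numbers that were not shown to pair the libraries, and against WT it added Socs3 (-1.58, adjusted p = 0.00294), for 5 members among 2965 genes. Requiring a log2 fold change of at least 1 left 3 (CD4; Cish, Pim2, Bcl3) and 2 (CD8; Cish, Bcl3) against WT, among 901 and 791 genes. It left 1 in each subset against STAT3ko (Pim2 in CD4, Cish in CD8), among 717 and 795 genes. With the pool as a block, CD8 against CD4 gave 5 in WT and 3 in STAT3ko PD-1ko donors, among 2991 and 1774 genes. Beside these and those in the results, the block by replicate number changed no call of a member between genotypes.

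Leaving out each library in turn, the number called ranged from 0 to 6 (CD4) and 0 to 5 (CD8) for STAT3ko PD-1ko against WT, from 0 to 2 in both subsets for STAT3ko PD-1ko against STAT3ko, from 0 to 1 (Bcl3, without the first WT library) in CD4 for STAT3ko against WT, and from 1 to 3 in STAT3ko and 0 to 1 in STAT3ko PD-1ko donors for CD8 against CD4. Signs turned, in values that were not calls, for Pim1 in STAT3ko against WT (-1.41 to 0.34 in CD4, -1.10 to 0.73 in CD8), in STAT3ko PD-1ko against STAT3ko (-1.12 to 0.48 and -1.41 to 0.0806), and in CD8 against CD4 (-1.13 to 0.52 in WT, -0.93 to 1.03 in STAT3ko). They turned for Socs3 in STAT3ko PD-1ko against STAT3ko (-1.67 to 0.16 and -1.43 to 0.28) and in CD8 against CD4 (-0.94 to 0.22 in WT, -1.23 to 0.95 in STAT3ko, -0.64 to 0.75 in STAT3ko PD-1ko). They also turned for Bcl3 in STAT3ko PD-1ko against STAT3ko in CD4 (-0.12 to 0.35), Cish in STAT3ko against WT in CD8 (-0.44 to 0.10), and Socs2 in STAT3ko PD-1ko against WT in CD8 T cells (-0.14 to 0.0527, and 0.0366 with library totals alone). Pim1 in CD8 against CD4 of STAT3ko donors was -0.00223 with at least 10 counts in every library. The cause was not tested. In the fits that leave out a library, the calls over all genes moved as well, as given below.

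Over all genes, STAT3ko against WT gave 40 calls in CD4 (271 with DESeq2, 165 with no filter, 303 with the replicate block, 1 with only 4 libraries) and 7 in CD8 T cells (218 with DESeq2, 66 with no filter, 3 with limma, 1 with library totals or the stricter filter, 0 with only 4 libraries). STAT3ko PD-1ko gave 1538 calls against WT in CD4 (3104 with the block, 901 past a log2 fold change of 1) and 2066 in CD8 T cells (791 past 1), and 1324 (2100 with DESeq2, 3105 with the block, 717 past 1) and 2017 (795 past 1) against STAT3ko. CD8 against CD4 gave 1294 in WT, 1187 in STAT3ko, and 511 in STAT3ko PD-1ko donors (2014, 1909, and 939 with the replicate block, and 2991, 3077, and 1774 with the pool as a block). The interaction gave 0 and 1 (5 and 75 with DESeq2, 0 and 28 with the replicate block, and 0 and 84 with the pool as a block). Leaving out 1 library gave 1 to 45 (CD4) and 0 to 2 (CD8) calls for STAT3ko against WT, 63 to 1955 and 112 to 1902 for STAT3ko PD-1ko against WT, and 0 to 1222 and 2 to 1869 against STAT3ko, with the lowest of the last 4 without the second STAT3ko PD-1ko library. For CD8 against CD4 it gave 624 to 1318 in WT, 439 to 1149 in STAT3ko, and 174 to 511 in STAT3ko PD-1ko donors, with the lowest without the first CD8 library in WT and STAT3ko and the second in STAT3ko PD-1ko donors. Beside those lost by the requirement of a log2 fold change of at least 1, the genotype calls of members lost without leaving out a library were Socs1 in CD4 T cells against WT, given in the results, and Bcl3 in CD4 T cells against WT with limma (-1.36, adjusted p = 0.0521).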
